A study of Danio rerio with 6 samples.

Results

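The expression of 9 genes of neuronal maturation and the synapse was followed in the heads of *prpf31* mutant zebrafish at 36 hours post fertilization (hpf). They were chosen by name, with earlier results of these data known, as genes used by neurons throughout the nervous system: *elavl3*, *elavl4*, *gap43*, *stmn1b*, *stmn2a*, *snap25a*, *snap25b*, *sv2a* and *tuba1a*. The 9 names correspond to 10 genes of the 34965 in the count table, because *stmn2a* could not be told from its duplicate, and both STMN2 genes are therefore given. The 2 SNAP25 genes are *snap25a* and *snap25b*, but which is which could not be told, and these 4 genes are named by their Ensembl identifiers.

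The mutants were *prpf31*-/- embryos of a stable CRISPR/Cas9 knockout line and the siblings were wild type. Both groups are labelled as AB strain, and both were sampled at 36 hpf. Each group had 3 libraries of poly(A) RNA, each from a pool of 35 genotyped heads, so a library holds brain, eyes, skin, muscle and skeleton-forming tissue together. Prpf31 is a splicing factor of the U4/U6.U5 tri-snRNP, and the loss of its gene was general rather than limited to neurons. The labels do not say whether the pools came from separate clutches, and the p values measure only the spread between these pools. In such bulk samples, fewer neurons and less RNA per neuron cannot be told apart.

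A neuron that has left the cell cycle first turns on RNA-binding proteins of the Hu family, which stabilise and splice neuronal transcripts. It then extends an axon, which needs tubulin, regulators of microtubule growth such as the stathmins, and membrane proteins of the growth cone such as Gap43. Vesicle proteins such as Sv2a, and the SNARE protein Snap25 that fuses vesicles with the plasma membrane, mark the forming presynapse.

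The libraries held 65612727 to 66381302 counts in mutants and 58706617 to 65799306 counts in siblings. Levels are given as TMM-scaled CPM, the counts of a gene relative to the scaled library total. They compare a gene between libraries. A gene was called lower or higher at an adjusted p of 0.05 or lower in the quasi-likelihood test of edgeR (Benjamini-Hochberg over the 24277 genes tested). The targeted gene *prpf31* had 22.4, 24.5 and 27.3 CPM in mutants 1, 2 and 3, against 38.7, 37.9 and 37.6 CPM in siblings 1, 2 and 3. The mutants thus lay below every sibling (log2 fold change −0.62 ± 0.11, adjusted p = 0.018 in edgeR, where ± is the standard error here and for every log2 fold change that follows). In the other fits described below, *prpf31* was called lower in 5 of 9 with all libraries and in 2 of 6 with a library left out. It missed the threshold with library sizes alone (adjusted p = 0.0617) and without any one of the siblings (adjusted p between 0.0776 and 0.0898). The library of mutant 1 stood apart: it had a TMM factor of 0.816, where the other 5 had 1.02 to 1.06, and 14.5% of its counts came from its 10 most abundant genes, compared with 8.14% to 9.54% elsewhere. Results are therefore also given without it.

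Of the 10 genes, *stmn1b* and *tuba1a* were lower in the mutants, at 0.501 and 0.513 of the sibling mean in CPM, and none was higher. Across all genes tested, 3.83% were called lower and 3.96% higher. In this fit none of the 10 reached a fold of 2, though *stmn1b* lay close to it (log2 fold change −0.997). Over all genes, 1.22% were called lower by at least that fold. In part of the other fits given below *stmn1b* did pass it, as with equally numbered libraries paired (−1.02, adjusted p = 0.0046 in edgeR). In DESeq2 it did not (−0.99). The Hu genes and *gap43* lay below the siblings in every mutant library without passing the test. In other fits given below, *gap43* passed with equally numbered libraries paired, and *elavl3* without mutant 1. The vesicle gene *sv2a*, the SNARE genes of SNAP25 and both STMN2 genes overlapped between mutants and siblings. At an unadjusted p under 0.05, 3 of the 10 were lower and 0 higher, against 3027 and 2856 of the 24277 genes tested. DESeq2 also called 2 of the 10 lower and 0 higher, where it called 6.26% of all genes lower and 6.57% higher.

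*stmn1b* encodes a stathmin, a phosphoprotein that binds tubulin dimers and promotes the shrinkage of microtubules. It had 50.8, 75.0 and 76.9 CPM in the mutants, against 122, 136 and 146 CPM in the siblings. All 3 mutant libraries lay far below the lowest sibling, with mutant 1 the lowest. The log2 fold change was −0.997 ± 0.18 (adjusted p = 0.0174 in edgeR), and it was −0.84 without mutant 1 (adjusted p = 0.00206). Scaled by library sizes alone, the gene missed the threshold (log2 fold change −1.10, adjusted p = 0.0523).

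*tuba1a* encodes an alpha-tubulin abundant in developing neurons. Its level was 169, 249 and 239 CPM in the mutants, against 396, 426 and 457 CPM in the siblings. The groups were again apart in every library. The log2 fold change was −0.96 ± 0.17 (adjusted p = 0.0174 in edgeR), and −0.82 without mutant 1 (adjusted p = 0.00144). Both calls were lost in part of the fits with a library left out: without any one of the siblings neither gene was called (adjusted p between 0.0543 and 0.0915), and without mutant 3 only *stmn1b* was (adjusted p = 0.0492, against 0.0562 for *tuba1a*). The same fits called 0.444% to 0.827% of all genes lower.

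**Figure D1:**
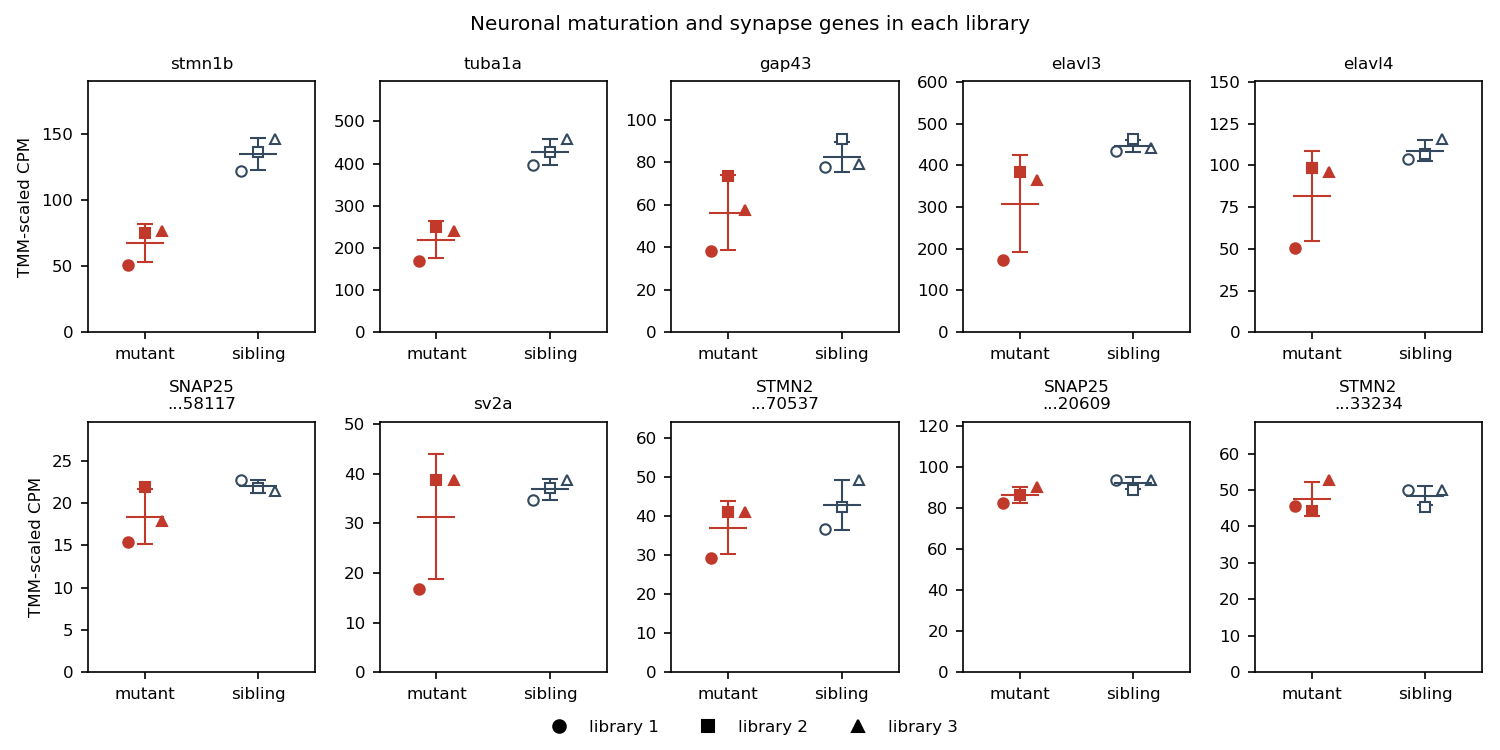
TMM-scaled CPM of the 10 genes in each library, mutants in red at the left and siblings in blue at the right of every panel. Symbols give the library number, and the horizontal lines and bars give the mean and SD of 3 libraries. In *stmn1b*, *tuba1a*, *gap43*, *elavl3* and *elavl4* all mutant libraries lie below all siblings, while the other 5 genes overlap.

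*gap43* encodes a palmitoylated phosphoprotein of the growth cone. It had 38.1, 73.5 and 57.5 CPM in the mutants, against 78.0, 90.9 and 79.5 CPM in the siblings. The highest mutant library was just below the lowest sibling. The log2 fold change of −0.55 ± 0.22 did not pass the test (edgeR adjusted p = 0.182). With the replicate number as a block, which compares equally numbered libraries, *gap43* was called lower (log2 fold change −0.60, adjusted p = 0.048), together with *stmn1b* and *tuba1a*, where 6.61% of all genes were called lower.

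*elavl3* encodes HuC, whose transcript appears in zebrafish neurons soon after their last division. Its level was 174, 384 and 365 CPM in the mutants, against 433, 462 and 442 CPM in the siblings. All 3 mutants lay below the siblings, but mutant 1 had less than the other mutants by a wide margin. The log2 fold change was −0.53 ± 0.28 (adjusted p = 0.282 in edgeR). Without mutant 1, the lowest library for this gene, the difference and its standard error were both smaller. They were −0.26 ± 0.07 (adjusted p = 0.0471), in an edgeR fit that called 8.17% of all genes lower.

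*elavl4*, which encodes HuD, had 50.3, 98.4 and 96.0 CPM in the mutants, against 104, 107 and 116 CPM in the siblings. Mutants 2 and 3 were close to the siblings and mutant 1 was again far lower. The log2 fold change was −0.42 ± 0.24 (adjusted p = 0.337 in edgeR), and −0.17 without mutant 1 (adjusted p = 0.190). The log2 ratio of *elavl3* to *elavl4* within a library was 1.89 ± 0.09 in mutants and 2.04 ± 0.09 in siblings (SD, n = 3 each; 2-sided exact permutation p = 0.2 with libraries taken as unpaired, where 0.1 is the smallest this design allows). Between equally numbered libraries the ratio differed by −0.27, −0.14 and −0.0081, lower in the mutant in 3 of 3 pairs, and a paired permutation could not go below a p of 0.25.

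Both STMN2 genes encode stathmins of the growth cone that are anchored to membranes. The gene ENSDARG00000070537 had 29.2, 41.1 and 41.1 CPM in the mutants, against 36.8, 42.3 and 49.4 CPM in the siblings. The gene ENSDARG00000033234 had 45.7, 44.2 and 52.9 CPM in the mutants, against 50.02, 45.4 and 50.03 CPM in the siblings. Only mutant 1 lay below all siblings in the first of them, and in the second the highest library was a mutant. The log2 fold changes were −0.21 ± 0.17 and −0.026 ± 0.11, with edgeR adjusted p values of 0.511 and 0.915, and the sign of the second turned without mutant 2 and without sibling 1.

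The SNAP25 gene ENSDARG00000020609 was the more abundant of the SNARE pair, with 82.3, 86.5 and 90.0 CPM in the mutants, against 93.8, 88.9 and 93.6 CPM in the siblings. The other SNAP25 gene, ENSDARG00000058117, had 15.4, 21.9 and 17.8 CPM in the mutants, against 22.8, 21.7 and 21.4 CPM in the siblings. In both, the mutant with the highest level was within the range of the siblings. The log2 fold changes were −0.095 ± 0.10 (adjusted p = 0.612 in edgeR) for the first and −0.26 ± 0.14 (adjusted p = 0.322) for the second. Within libraries, the log2 ratio of the less to the more abundant gene was −2.25 ± 0.23 in mutants and −2.07 ± 0.05 in siblings (SD, n = 3 each; exact permutation p = 0.4).

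*sv2a* encodes a glycoprotein of the synaptic vesicle membrane. It had 16.8, 38.7 and 38.7 CPM in the mutants, against 34.7, 37.1 and 38.8 CPM in the siblings. Mutants 2 and 3 sat among the siblings and mutant 1 alone was low. The log2 fold change of −0.23 ± 0.29 (adjusted p = 0.671 in edgeR) became 0.061 without mutant 1 (adjusted p = 0.692).

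**Figure D2:**
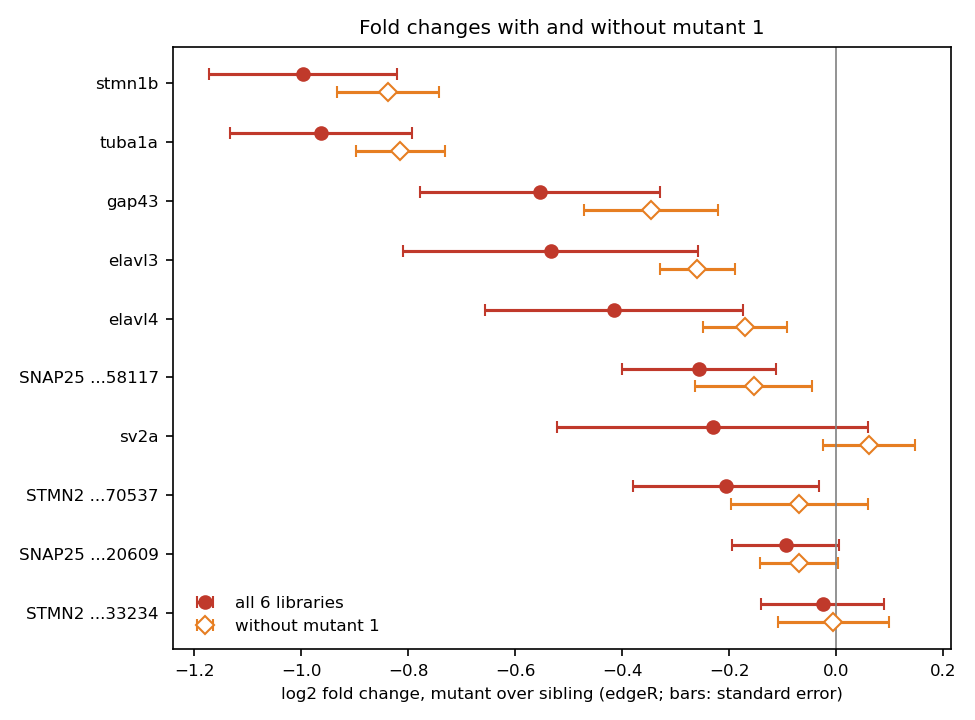
Log2 fold changes of mutants over siblings for the 10 genes from edgeR, with all 6 libraries (filled circles) and without mutant 1 (open diamonds). Bars are standard errors. *stmn1b* and *tuba1a* keep values of −0.84 and −0.82 without mutant 1, whereas *elavl3* moves to −0.26 and *sv2a* to 0.061.

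The 10 log2 fold changes were all negative, where 48.3% of all genes had a negative value, and their median was −0.34, against 0.019 over all genes tested. Among the lists of other cell types described below, medians ran from −0.91 for lens and −0.79 for blood to 0.39 for epidermis and 0.40 for muscle. The genes were chosen with earlier results of these data known, so these comparisons describe the set and do not test it. In 5 of the 10, every mutant lay below every sibling, as in 17.4% of all genes. The median was −0.42 with either STMN2 gene left out and −0.16 without mutant 1. By library, the median of the 10 genes relative to the sibling mean was −1.11 in mutant 1, −0.14 in mutant 2 and −0.23 in mutant 3, in log2 units. Mutant 1 was the lowest mutant in 9 of the 10 genes, against 44.8% of all genes.

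**Figure D3:**
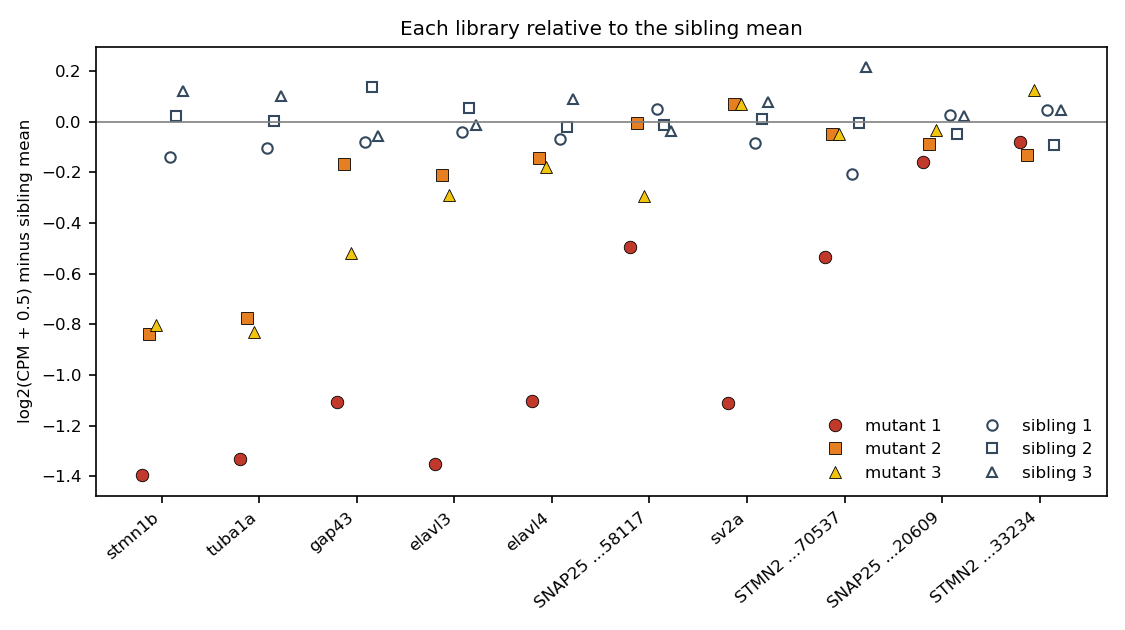
Each library's log2(CPM + 0.5) minus the mean of the 3 siblings, for the 10 genes ordered by fold change, with mutants as filled and siblings as open symbols. Mutant 1 is the lowest library in every gene but the STMN2 gene ENSDARG00000033234, and mutants 2 and 3 fall below −0.7 only in *stmn1b* and *tuba1a*.

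Levels of different genes can be compared only per transcript length, for which the deposited FPKM values were used. In mutants, *elavl3* (149 ± 69.2 FPKM) and *tuba1a* (139 ± 42.9 FPKM) were the most abundant, and their libraries overlapped. In siblings, *tuba1a* (291 ± 27.4 FPKM) was above *elavl3* (229 ± 12.4 FPKM) in every library (SD, n = 3 throughout). The lowest level was that of *sv2a*, with 5.59 ± 2.72 FPKM in mutants and 6.93 ± 0.56 FPKM in siblings.

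Between these ends, the order of levels was not the same in mutants and siblings. The SNAP25 gene ENSDARG00000020609 had 58.3 ± 9.9 FPKM in mutants and 67.7 ± 1.93 FPKM in siblings. *stmn1b* was below it in each mutant library, with 39.2 ± 12.7 FPKM, and above it in each sibling library, with 84.0 ± 9.46 FPKM. *gap43* had 52.4 ± 21.2 FPKM in mutants and 82.2 ± 8.38 FPKM in siblings, and overlapped *stmn1b* in both groups. Next came *elavl4*, with 27.6 ± 11.7 FPKM in mutants and 39.1 ± 3.02 FPKM in siblings. Both STMN2 genes and the SNAP25 gene ENSDARG00000058117 followed, at 17.9 to 21.8 FPKM in mutants and 23.08 to 24.7 FPKM in siblings, without a difference beyond their spread.

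The difference between the cytoskeletal and the SNARE gene was examined as a ratio within libraries, a comparison chosen after the values had been seen. The log2 ratio of *stmn1b* to the SNAP25 gene ENSDARG00000020609, in CPM, was −0.69, −0.21 and −0.23 in the mutants, against 0.38, 0.62 and 0.64 in the siblings. For *tuba1a* it was 1.04, 1.53 and 1.41 in the mutants, against 2.08, 2.26 and 2.29 in the siblings. Both ratios were lower in each mutant than in each sibling, by 0.92 and 0.89 on average. Both reached the smallest exact permutation p of 0.1 (0.2 after adjustment over the 6 values tested in this way). This p cannot serve as a test, because the genes were picked once their values were known to differ.

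Each of the genes has paralogs, and the alpha-tubulins showed the most calls. Of 10 alpha-tubulin genes tested, 4 were lower and none was higher, where 3.83% of all genes were called lower, and in 8 all mutants lay below all siblings, as in 17.4% of all genes. *tuba1b* had 95.5, 135 and 135 CPM in the mutants, against 222, 249 and 263 CPM in the siblings, a log2 fold change of −1.003 ± 0.16 (adjusted p = 0.0143 in edgeR). *tuba5* (log2 fold change −0.62, adjusted p = 0.022) and *tuba8l3* (−0.49, adjusted p = 0.043) were also lower, and *tuba1c* (−0.64, adjusted p = 0.0516), *tuba8l4* (−0.54, 0.0706), *tuba7l* (−0.72, 0.27) and *tuba2* (−0.36, 0.309) did not pass in edgeR. With the replicate block *tuba1c* (adjusted p = 0.0272) and *tuba8l4* (adjusted p = 0.0383) were called lower too, as they were by DESeq2 and without mutant 1. The family had 6 lower genes in each of these 3 fits, 2 without mutant 2, 1 without mutant 3 or sibling 1, and 0 without sibling 2 or sibling 3. The share of all genes called lower was 6.61% with the block, 6.26% in DESeq2 and 8.17% without mutant 1. It was 0.444% to 1.61% without any one of the other libraries. *tuba8l2* had a value of 0.33 (adjusted p = 0.525), with 349 CPM in mutant 1 against 160 to 209 CPM in the other libraries, and −0.11 without mutant 1. *tuba4l*, with 2.12 to 2.57 CPM in mutants and 2.24 to 2.43 CPM in siblings, had a log2 fold change of 0.027 (adjusted p = 0.948).

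With a library left out, *tuba1b* lost its call without sibling 2 or sibling 3 (adjusted p of 0.0757 and 0.0768), and *tuba5* and *tuba8l3* were called only without mutant 1. The log2 ratio of *tuba1a* to *tuba1b* was 0.84 ± 0.03 in mutants and 0.80 ± 0.03 in siblings (SD, n = 3 each; exact permutation p = 0.3). Alpha-tubulin genes are very similar in sequence, and how reads that match several of them were counted is not given in the sources used here, so the values of single alpha-tubulins are uncertain to that extent.

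Among the growth-cone membrane proteins, all 6 genes lay lower in every mutant than in any sibling, as in 17.4% of all genes, and both MARCKS genes were called, where 3.83% of all genes were called lower. None of the 6 was called with library sizes alone or by limma on FPKM, fits that called 2.14% and 1.08% to 3.46% of all genes lower. MARCKS proteins bind actin and membrane phospholipids and are not limited to neurons. The gene ENSDARG00000008803 had 342, 495 and 481 CPM in the mutants, against 729, 770 and 751 CPM in the siblings (log2 fold change −0.77 ± 0.17, adjusted p = 0.0338 in edgeR). The gene ENSDARG00000004049 had a log2 fold change of −0.85 (adjusted p = 0.0393). The first was called in 1 and the second in 2 of the 6 fits with a library left out, those without mutant 1 and, for the second, without mutant 2. *basp1* (−0.52), *marcksl1a* (−0.43) and *marcksl1b* (−0.37) did not pass in edgeR (adjusted p between 0.076 and 0.114), and were called lower without mutant 1 (adjusted p between 0.0254 and 0.0403) and by DESeq2 (adjusted p of 0.0477 for *basp1*, 0.0214 for *marcksl1a* and 0.0395 for *marcksl1b*).

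The log2 fold changes of the 7 stathmin genes lay on both sides of 0, and *stmn1b* was called by edgeR, where 3.83% of all genes were called lower. Besides *stmn1b*, the other STMN1 gene, ENSDARG00000004169, had 129, 119 and 101 CPM in the mutants, against 161, 164 and 149 CPM in the siblings (log2 fold change −0.44, edgeR adjusted p = 0.0772). The gene ENSDARG00000004169 was called lower by DESeq2 (adjusted p = 0.0401), with the replicate block (adjusted p = 0.0458), by all 3 limma fits on FPKM (adjusted p between 0.0346 and 0.0455) and without mutant 1 (adjusted p = 0.0106). *stmn3* had 21.2, 18.3 and 18.1 CPM in the mutants, against 16.8, 16.7 and 13.8 CPM in the siblings, a log2 fold change of 0.29 (adjusted p = 0.231). The STMN4 genes had values of 0.15 and 0.30 (adjusted p = 0.539 and 0.356), and the second, ENSDARG00000043932, was called higher without mutant 1 (0.47, adjusted p = 0.0339). Where a sibling was left out, or with library sizes alone, no stathmin gene was called. Those fits called 0.444% to 0.754% and 2.14% of all genes lower.

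In the Hu family, none of 5 genes was called in the fit of all libraries, by edgeR or DESeq2, and 1 had an unadjusted p under 0.05 for a lower level. Over all 24277 genes tested, 3027 lower and 2856 higher genes had such an unadjusted p. The share of all genes called lower and higher was 3.83% and 3.96% in edgeR, and 6.26% and 6.57% in DESeq2. *elavl1a*, whose product HuR is made in most cell types, had 164, 202 and 188 CPM in the mutants, against 239, 229 and 233 CPM in the siblings (log2 fold change −0.34, edgeR adjusted p = 0.129, and 0.0391 without mutant 1). *elavl1*, the other gene of that name, had a log2 fold change of −0.18 (adjusted p = 0.321), and *elavl2* was near the detection limit, below 0.4 CPM in every library. Of the 6 genes of the SNAP-25 family, none was called by edgeR or DESeq2 and 2 had an unadjusted p under 0.05 for a lower level: *snap23.2* (log2 fold change −0.72, adjusted p = 0.144) and *snap47* (−0.51, adjusted p = 0.107). *snap29* had −0.23 (adjusted p = 0.27) and *snap23.1* 0.13 (adjusted p = 0.658). Of the 4 SV2 genes none was called by edgeR or DESeq2, and 1 had an unadjusted p under 0.05, *sv2b*, for a higher level. *sv2b* had 31.9, 27.7 and 33.7 CPM in the mutants, against 23.7, 24.7 and 24.8 CPM in the siblings (log2 fold change 0.35, adjusted p = 0.107), while *sv2c* had 0.090 and *sv2ba* −0.20 (adjusted p = 0.804 for both).

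**Figure D4:**
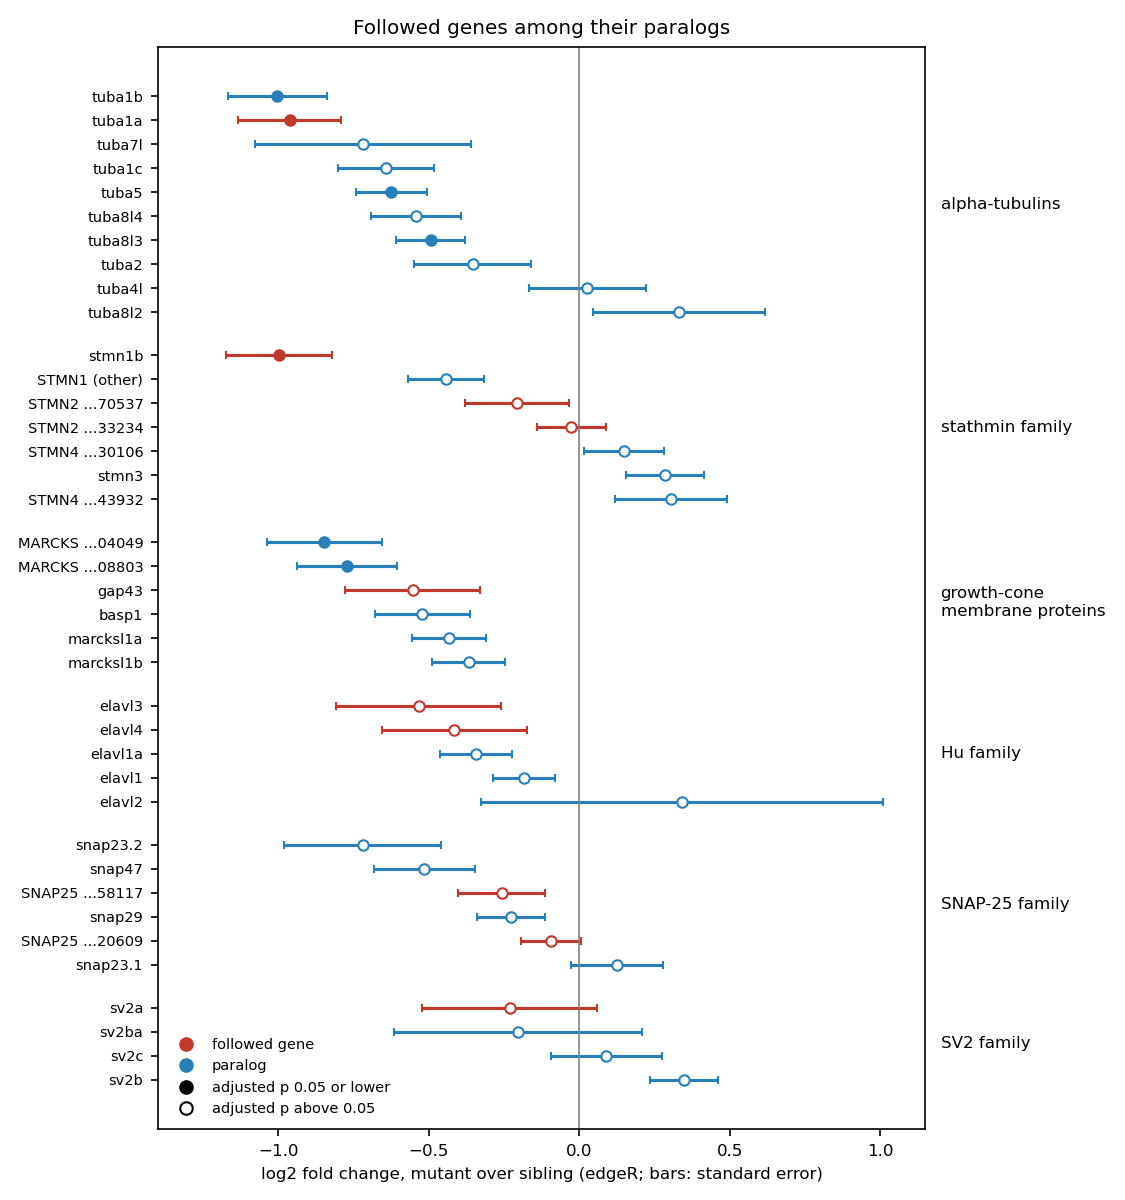
Log2 fold changes of mutants over siblings (edgeR, bars are standard errors) for every tested gene of 6 families, with the followed genes in red and their paralogs in blue. Filled points have an adjusted p of 0.05 or lower: 4 alpha-tubulins, *stmn1b* and both MARCKS genes.

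The genes of axon growth and the neuronal cytoskeleton were described over a wider list of 55 tested genes, with the 10 genes above left out. Of these, 7 were lower and 0 higher, against the 3.83% called lower over all genes. The median log2 fold change was −0.24, and in 23 genes every mutant lay below every sibling, against 3 in which every mutant lay above (17.4% and 14.9% of all genes). Besides *tuba1b*, the lowest unadjusted p values belonged to 3 genes. *tubb5*, a beta-tubulin, had 164, 280 and 243 CPM in the mutants, against 515, 555 and 507 CPM in the siblings (log2 fold change −1.20 ± 0.20, adjusted p = 0.0149 in edgeR). *dclk1a*, a microtubule-binding kinase of migrating neurons, had 5.51, 9.51 and 7.94 CPM in the mutants, against 16.2, 19.0 and 16.4 CPM in the siblings (log2 fold change −1.17 ± 0.20, adjusted p = 0.0169). *fez1*, a kinesin adaptor of axonal transport, had 28.1, 41.0 and 44.2 CPM in the mutants, against 59.0, 68.2 and 75.1 CPM in the siblings (log2 fold change −0.84, adjusted p = 0.0374). In all 3 the groups were apart, and each lost its call without any one of the siblings.

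The other 3 called genes of that list, named after their values had been seen, were *dpysl2* (log2 fold change −0.81), *map2* (−0.60) and *ncana* (−0.60), which encode a collapsin response mediator, a dendritic microtubule-binding protein and a proteoglycan of the neural matrix. At an unadjusted p under 0.05, 19 genes of the whole list were lower and 2 higher, against 3027 and 2856 of the 24277 genes tested. DESeq2 called none of the list higher. The count of genes called lower was 16 without mutant 1, where the median was −0.10 and 2 genes were higher (8.17% of all genes were lower and 8.22% higher in that fit). It was 14 with the replicate block and 14 in DESeq2, which called 6.61% and 6.26% of all genes lower. It was 4 without mutant 2, 1 without mutant 3 or sibling 1, and 0 without sibling 2 or sibling 3. These fits called 1.61%, 0.827%, 0.754%, 0.45% and 0.444% of all genes lower, in that order.

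The genes of the synaptic vesicle and of transmitter release formed a list of 70 tested genes, with the 10 genes again left out. None was called in either direction by edgeR or DESeq2. Over all genes, edgeR called 3.83% lower and 3.96% higher, and DESeq2 6.26% and 6.57%. At an unadjusted p under 0.05, 5 were lower and 2 higher, against 3027 and 2856 of the 24277 genes tested. The median log2 fold change was −0.11, and in 9 genes every mutant lay below every sibling, as in 17.4% of all genes, against 4 in which every mutant lay above, as in 14.9% of all genes. The summed level of the 74 matched genes of the list, tested or not, was 1079, 1185 and 1224 CPM in the mutants. It was 1243, 1229 and 1202 CPM in the siblings, and the groups overlapped. Without mutant 1 the median was −0.017, and *vamp1a* alone was called lower (adjusted p = 0.0234), where 8.17% of all genes were. With the replicate block *rims1b* alone was called lower (adjusted p = 0.0377), where 6.61% of all genes were. Both were named after their values had been seen. Whether the vesicle list differed from the axon list was not tested.

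Of 27 tested genes of neuronal commitment, a list of transcription factors and Delta ligands, 3 were lower and 0 higher, where 3.83% of all genes were called lower, and the median log2 fold change was −0.52. *scrt1b*, a Scratch family repressor of newborn neurons, had 1.25, 3.35 and 3.55 CPM in the mutants, against 10.7, 10.9 and 10.7 CPM in the siblings (log2 fold change −1.98 ± 0.35, adjusted p = 0.0174 in edgeR). Its relative *scrt2* had 14.5, 27.3 and 27.5 CPM in the mutants, against 49.6, 56.5 and 57.7 CPM in the siblings (−1.24, adjusted p = 0.0244). *sox11a*, which promotes the expression of neuronal genes, had 98.3, 166 and 178 CPM in the mutants, against 289, 313 and 341 CPM in the siblings (−1.09, adjusted p = 0.0285). In each of the 3, mutants 2 and 3 were also well below the siblings. At an unadjusted p under 0.05, 12 genes of the list were lower and 1 higher, against 3027 and 2856 of the 24277 genes tested. Without mutant 1, 11 were called lower and 3 higher (8.17% and 8.22% of all genes), and the median was −0.24. With the replicate block 10 were lower (6.61% of all genes), and DESeq2 called 7 lower and 1 higher (6.26% and 6.57% of all genes). The count of lower genes was 2 without mutant 2, 1 without mutant 3 or with library sizes alone, and 0 without any one of the siblings. These fits called 1.61%, 0.827%, 2.14% and 0.444% to 0.754% of all genes lower, in that order.

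**Figure D5:**
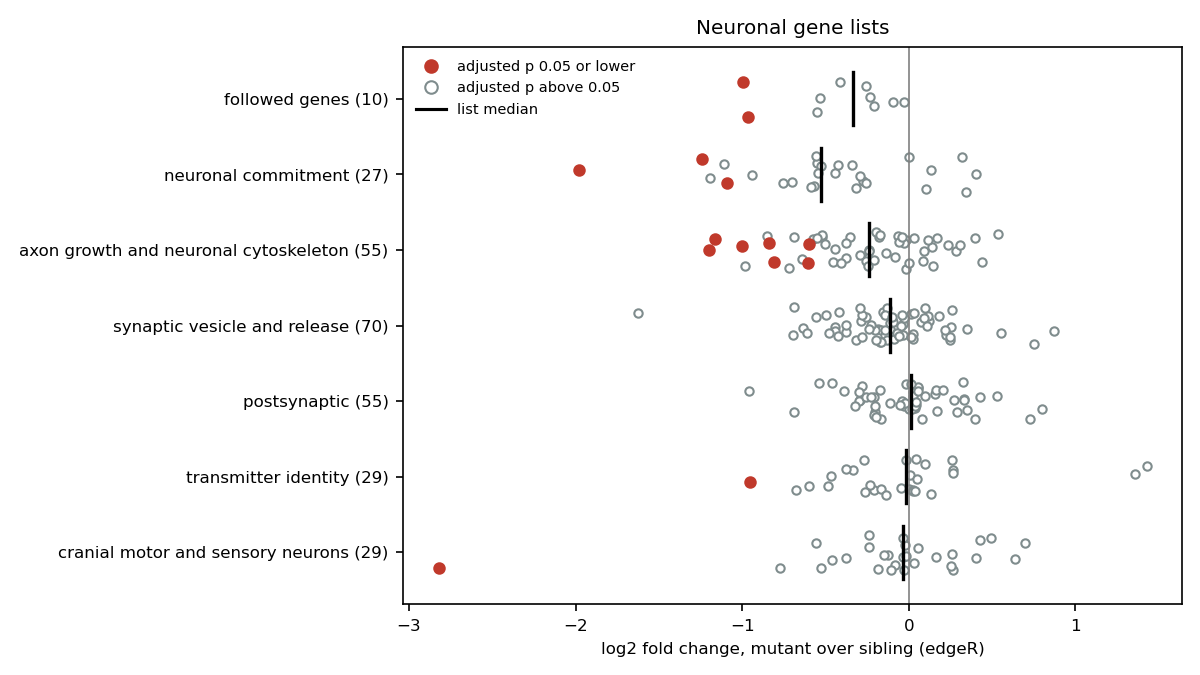
Log2 fold changes of mutants over siblings (edgeR) for the followed genes and 6 lists of neuronal genes, with the number of tested genes in parentheses. Filled points have an adjusted p of 0.05 or lower, and vertical bars mark list medians, which run from −0.52 for commitment and −0.24 for axon growth to −0.11 for the synaptic vesicle list and 0.014 for postsynaptic genes.

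A list of genes of neural progenitors and radial glia was described in the same way. Its median log2 fold change was −0.34, and −0.18 without mutant 1, and 27 of its 37 tested genes had a negative value. Of 37 tested genes of neural progenitors and radial glia, edgeR called 5 lower and 0 higher (3.83% and 3.96% of all genes). DESeq2 called 9 lower and 1 higher (6.26% and 6.57% of all genes). At an unadjusted p under 0.05, 12 were lower and 2 higher, against 3027 and 2856 of the 24277 genes tested. *hes6*, a bHLH factor that promotes neuronal differentiation, had a log2 fold change of −1.19 (edgeR adjusted p = 0.00937). The radial glial gene *fabp7a* (−1.23, adjusted p = 0.0153), the topoisomerase of dividing cells *top2a* (−0.78, adjusted p = 0.0244) and the glial filament gene *gfap* (−0.54, adjusted p = 0.0326) were lower as well. Without mutant 1, 10 genes of the list were lower and 5 higher (8.17% and 8.22% of all genes). With the replicate block 7 were lower (6.61% of all genes). The count of genes called lower was 3 without mutant 2, 2 without mutant 3, 1 without sibling 1 or sibling 3, and 0 without sibling 2. These fits called 1.61%, 0.827%, 0.754%, 0.444% and 0.45% of all genes lower, in that order. The summed level of the list was 4860, 6882 and 6671 CPM in the mutants, against 6376, 6789 and 6468 CPM in the siblings, low in mutant 1 alone.

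Genes of muscle, skin and lens were also summed in each library, without a measure of the share of each tissue. The summed level of 25 muscle genes, 23 of them tested, was 119326, 46091 and 46365 CPM in the mutants, against 58017, 49168 and 47725 CPM in the siblings. That of 18 epidermis genes was 38863, 25671 and 19993 CPM in the mutants, against 23828, 20201 and 17854 CPM in the siblings. Mutant 1 was the highest library in both lists. For muscle, mutants 2 and 3 lay slightly below all siblings. For epidermis, mutant 2 lay above all siblings and mutant 3 within their range. None of the genes of these lists was at 0 in all libraries, and none was called by edgeR, where 3.83% of all genes were lower and 3.96% higher. At an unadjusted p under 0.05, 2 muscle and 3 epidermis genes were higher, against 2856 of the 24277 genes tested. DESeq2 called 1 muscle and 2 epidermis genes higher (6.57% of all genes). The median log2 fold change of the muscle list was 0.40, and −0.25 without mutant 1. That last fit called 5 muscle genes lower and 1 higher (8.17% and 8.22% of all genes). The most abundant muscle genes were *actc1b* (log2 fold change 0.67), *ckmb* (0.36) and the MYL1 gene ENSDARG00000017441 (0.41), and the most abundant epidermal genes *krt4* (0.49), *cyt1* (0.56) and *cyt1l* (0.50).

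The summed level of 14 lens genes was 219, 1057 and 1016 CPM in the mutants, against 1296, 1263 and 1559 CPM in the siblings. Of these genes, 1 was lower, *cryaa* (log2 fold change −2.07, edgeR adjusted p = 0.0334), where 3.83% of all genes were called lower. The most abundant lens genes, *crybb1* (−0.88), *cryba2b* (−1.06) and *cryba1b* (−0.59), did not pass in edgeR. Of the lens list, 6 genes were lower without mutant 1, 5 with the replicate block and 4 in DESeq2 (8.17%, 6.61% and 6.26% of all genes). The count was 0 with library sizes alone or without any one of the other 5 libraries, fits that called 2.14% and 0.444% to 1.61% of all genes lower. The median log2 fold change of the lens list was −0.91, and −0.43 without mutant 1. The summed level of the 10 followed genes was 672, 1113 and 1075 CPM in the mutants, against 1371, 1458 and 1494 CPM in the siblings. The part of muscle, skin or lens tissue in the lower values of mutant 1 was not tested. Without mutant 1, *stmn1b* and *tuba1a* stayed at 0.563 and 0.572 of the sibling mean in CPM, *gap43*, *elavl3* and *elavl4* were at 0.792 to 0.893, and the remaining 5 at 0.904 to 1.05.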

How the data were processed

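RNA-seq of 6 libraries (3 mutant, 3 sibling) was analysed. Per the submitters' processing notes and the paper's methods, the authors mapped reads to GRCz11 with HISAT2 2.0.4. The deposited counts are whole numbers of reads per gene without normalization. Both featureCounts and HTSeq-count appear in the methods, the second in intersection-strict mode (HTSeq 0.9.1 in the notes), and which of them was used for the deposited table is not said. The annotation and strand setting are not given in the sources used here, and overlapping genes and near-identical copies are uncertain to that extent. The authors' FPKM values follow from these counts and 1 length per gene: over 16317 genes the largest relative deviation from this was 4.62e-09.

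Low counts were removed by filterByExpr, TMM factors were computed, and the quasi-likelihood test of edgeR 4.0.16 was run under R 4.3.3, mutants against siblings without covariates. Alternatives were DESeq2 1.42.0, RLE factors, library sizes alone, no filter, 10 counts in every library, the replicate block, limma 3.58.1 on log2(FPKM + 1) and log2(FPKM + 0.1) at a mean of at least 0.5 FPKM, log2(FPKM + 1) on unfiltered values, and the removal of each library in turn. Single values were compared by 2-sided exact permutation tests that took the libraries as unpaired. The scripts were tested on simulated data. Tables and plots were made in Python 3.11.15 (scipy 1.17.1, pandas 2.3.3, matplotlib 3.10.9, numpy 2.4.6).

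Equally numbered libraries deviated together (r = 0.41, 0.41 and 0.55 over 19484 genes, and −0.33 to −0.11 for unequal numbers). Deviations were taken from the mean of each group, so positive values for equal numbers bring negative ones for unequal numbers by construction. Whether the numbers are true pairs was not tested. The fit with the replicate block took the numbers as pairs, while the main fit and the permutation tests did not. What the numbers stand for is not given in the sources used here.

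The genes and 24 lists were compiled from general knowledge and chosen with earlier results of these data known. Of 513 list entries, 486 matched a gene: 286 by symbol in the reference table, 40 by the symbol the study pairs with an identifier, and 160 by symbol without the paralog letter. Named were the followed genes, all detected paralogs of 6 families, up to 4 called genes per direction in each other list by lowest unadjusted p, the 5 genes most like the followed genes, *prpf31*, and the 3 most abundant genes of each list of another cell type.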

Additional observations from a re-analysis of the deposited data

How the results depend on the processing

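Of the 10 followed genes, 2 were called lower with all libraries, 1 with library sizes alone, 0 with limma on log2(FPKM + 1) without a filter, and 0 to 3 with a library left out. These fits called 3.83%, 2.14%, 1.08% and 0.444% to 8.17% of all genes lower, in that order. Their median log2 fold change lay between −0.53 and −0.33 in the alternatives with all libraries and between −0.49 and −0.16 with a library left out. In the axon growth list, 7 genes were called lower, against 14 with DESeq2, 3 with library sizes alone, 4 with limma on log2(FPKM + 1) or log2(FPKM + 0.1), 1 without a filter on FPKM, and 0 to 16 with a library left out. DESeq2 called 6.26% of all genes lower, and limma 3.46% on log2(FPKM + 1) and 2.96% on log2(FPKM + 0.1). The replicate block, which pairs equal numbers, called 14 genes of the axon growth list, 1 of the synaptic vesicle list instead of 0, and 3 followed genes, with a median of −0.40. It called 6.61% of all genes lower. With a library left out, the vesicle list had 0 to 1 lower genes (0.444% to 8.17% of all genes). Over all genes tested, 1890 were called, against 3447 with DESeq2, 919 with library sizes alone, 3084 with the block and 4069 without mutant 1. Library sizes alone moved the median log2 fold change of all genes to −0.11 and log2(FPKM + 0.1) to −0.12, and changes there are relative to that shift. Of 27 genes named as lower or higher in the families and neuronal lists, 27 were also called with DESeq2 and 27 without mutant 1, but 2 in every fit with a library left out. These genes were picked by their edgeR call on the same counts, and DESeq2 and the fit without mutant 1 called more genes in all, so this overlap is no independent check. Values near 0 turned sign. With a library left out, the STMN2 gene ENSDARG00000033234 ran from −0.11 to 0.024 (above 0 without mutant 2, and at 0.0031 without sibling 1), *sv2a* from −0.41 to 0.061 (above 0 without mutant 1), *elavl2* from −0.090 to 0.69 (below 0 without mutant 1, at −0.024, and without sibling 1), *snap23.1* from −0.029 to 0.26 (below 0 without mutant 1), *sv2ba* from −0.43 to 0.033 (above 0 without sibling 1), *tuba8l2* from −0.11 to 0.54 (below 0 without mutant 1) and *tuba4l* from −0.029 to 0.11 (below 0 without mutant 1, mutant 3, at −0.013, or sibling 1, at −0.0028). With library sizes alone *snap23.1* was −0.024, *sv2c* −0.035 and *tuba4l* −0.11. With log2(FPKM + 1), filtered or not, they were −0.027, −0.020 and −0.061, and with log2(FPKM + 0.1) −0.028, −0.033 and −0.10. None of these was called, and the cause was not tested. The followed genes had 828 counts or more in every library, and what limited their precision was not tested.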

Other observations

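Genes of the postsynaptic side, 55 tested, had a median log2 fold change of 0.014, and none was called by edgeR in either direction. Over all genes, edgeR called 3.83% lower and 3.96% higher. At an unadjusted p under 0.05, 1 was lower and 4 higher, against 3027 and 2856 of the 24277 genes tested. DESeq2 called 2 higher (6.57% of all genes). The summed level of the 56 matched postsynaptic genes, tested or not, was 627, 611 and 668 CPM in the mutants. It was 617, 596 and 598 CPM in the siblings, with overlapping groups. Of 29 genes of transmitter identity, 1 (3.45%) was lower, against 3.83% of all genes. That was the TPH1 gene ENSDARG00000036082, which encodes a tryptophan hydroxylase of serotonin synthesis. It had 1.97, 2.12 and 2.32 CPM in the mutants, against 4.27, 3.18 and 4.98 CPM in the siblings (log2 fold change −0.95, edgeR adjusted p = 0.0417). Of 29 genes of cranial motor and sensory neurons, 1 (3.45%) was lower, again against 3.83% of all genes. That was *phox2ba*, a homeobox factor of visceral motor and autonomic neurons. Its level was 0.149, 0.147 and 0.132 CPM in the mutants, against 1.29, 1.11 and 0.657 CPM in the siblings (log2 fold change −2.82 ± 0.41, where ± is the standard error, adjusted p = 0.00953). The medians of these lists were −0.019 and −0.034. The summed level of the cranial list was 253 CPM in mutant 1 and 329 and 334 CPM in the other mutants, against 325 to 342 CPM in the siblings.

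In the retinal neuron fate list, 4 of 36 genes were lower and 1 higher, where 3.83% of all genes were called lower and 3.96% higher. The count of lower genes was 12 without mutant 1, 11 with the replicate block and 8 in DESeq2 (8.17%, 6.61% and 6.26% of all genes). It was 2 to 3 without any one of the other libraries. Without mutant 1, 2 genes were higher (8.22% of all genes). *vsx1*, a homeobox gene of bipolar cells, had a log2 fold change of −1.76 (edgeR adjusted p = 0.00175), *pou4f2*, a factor of retinal ganglion cells, −1.44 (adjusted p = 0.00866), *six7*, a factor of cone photoreceptors in zebrafish, −3.21 (adjusted p = 0.00982) and *prox1*, a factor of horizontal cells, −0.54 (adjusted p = 0.0465). The level of *six7* was low, with 0.26 ± 0.08 CPM in mutants and 2.42 ± 1.25 CPM in siblings (SD, n = 3 each). Its log2 fold change ran from −3.32 to −0.59 over 7 alternative fits with all libraries, and it was called in 6 of them. *prdm1* was higher, at 0.62 (adjusted p = 0.0236). These neurons also use the followed genes, and the share of the eyes in the heads' RNA was not measured.

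The profiles most like the mean of the followed genes over the 6 libraries, in log2 CPM relative to the sibling mean, belonged to *atrx* (root mean square difference 0.037), *cetn3* (0.037), *apba1b* (0.039), *brd7* (0.042) and *ints5* (0.043). *apba1b*, an adaptor of the Munc18 complex at synapses, had 8.66, 13.7 and 13.6 CPM in the mutants, against 16.3, 15.6 and 16.7 CPM in the siblings (log2 fold change −0.44, edgeR adjusted p = 0.199). None of the 5 was called with all libraries (adjusted p between 0.173 and 0.237). They were picked for their likeness over these same libraries, so their fold changes and the lack of calls follow from that choice.

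Other cell types had few calls in edgeR, but their medians were not all near 0. The median log2 fold change was −0.79 in blood, −0.48 in macrophages and −0.14 in cartilage and mesenchyme. It was −0.048 in endothelium, −0.019 in pigment and neural crest and 0.061 in the hatching gland. In the cartilage and mesenchyme list, 1 of 18 genes (5.56%, against 3.83% of all genes) was lower, the SOX9 gene ENSDARG00000043923 (log2 fold change −0.89). Its summed level was 17527, 9249 and 9922 CPM in the mutants, against 9342, 7990 and 8844 CPM in the siblings, highest in mutant 1, and its most abundant genes *col1a1a* (log2 fold change 0.70), *postnb* (0.34) and *col1a2* (0.46) were not called. No gene was called by edgeR among 14 of blood, 13 of macrophages, 12 of endothelium, 21 of pigment and neural crest and 7 of the hatching gland. Over all genes, edgeR called 3.83% lower and 3.96% higher. At an unadjusted p under 0.05, lower and higher genes numbered 4 and 1 in blood, 1 and 0 in macrophages, 2 and 0 in endothelium, 2 and 4 in pigment and neural crest, and 0 and 0 in the hatching gland. Over all 24277 genes tested, they numbered 3027 and 2856. DESeq2 called 3 blood genes lower and 1 higher, 2 pigment and neural crest genes higher, and none in the other 3 lists. Over all genes it called 6.26% lower and 6.57% higher. With the replicate block, 6 blood genes were lower (6.61% of all genes). The most abundant blood genes, *hbae3*, *hbbe3* and *hbbe1.3*, had log2 fold changes of −0.78, −0.19 and −0.96. Those of macrophages (*cd68*, *lcp1* and *ctsc*) had −0.016, −0.19 and −0.10, and those of endothelium (*fli1*, *aplnra* and *aplnrb*) −0.17, −0.20 and −0.26. In the pigment list, *gch2*, the TYRP1 gene ENSDARG00000056151 and *dct* had 0.63, 0.41 and −0.15, and in the hatching gland list *he1.1*, *he1.2* and *xbp1* had 0.37, 0.39 and 0.061. None of these was called.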
